A study of Mus musculus with 18 samples.

Results

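The 10 genes described here are the cadherins Cdh1 and Cdh2, the epithelial cell adhesion molecule Epcam, the epithelial transcription factor Grhl2, and 6 transcription factors of the epithelial-mesenchymal transition (EMT), Snai1, Snai2, Zeb1, Zeb2, Twist1 and Twist2. They were taken by name from the 19630 genes of the deposited table, and the estimated read counts of each gene's transcripts were summed. There are 18 mouse mRNA libraries, in 6 groups with 3 replicates each. In 2 groups there are feeders alone, the embryonic fibroblast layer on which embryonic stem (ES) cells are grown, either control or p53-defective by label. In the other 4 there are ES cells: on control feeders, on p53-defective feeders, after their control feeders had been removed, and with feeders replaced by ATN161, a peptide that inhibits integrin α5β1. The labels give no strain, age or p53 allele, do not say how p53 was altered, and do not say whether the ES cells after removal were separated from their feeders or grown on without them. The libraries of ES cells on feeders hold RNA of both cell kinds, so fewer cells of a kind and less RNA per cell cannot be told apart. The labels do not say whether the 3 replicates of a group were separate cultures, and p-values then measure only the spread between these libraries.

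E-cadherin, the product of Cdh1, joins epithelial cells and also mouse ES cells through contacts between like molecules, and it is anchored inside the cell by catenins. N-cadherin, the product of Cdh2, does the same in mesenchymal and neural cells. In an EMT, factors of the Snail, Zeb and Twist families are known to lower Cdh1 and other epithelial genes, Snail and Zeb proteins by binding E-box sequences, while Grhl2 is known to activate epithelial genes and to oppose Zeb1. Embryonic fibroblasts are mesenchymal and are known for high levels of several of these factors.

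The E-box form that Snail and Zeb proteins are known to bind, CAGGTG on one strand and CACCTG on the other, was searched in the 250 bases before the start of transcription in RefSeq promoter sequences of GRCm38.p6. Windows of 5 members were searched: Epcam, Snai1, Zeb2, Twist1 and Twist2. Of these, the windows of Epcam and Snai1 hold it and are printed 5′ to 3′ with the E-boxes in capitals, because they set a member known as a repressor beside an epithelial member. Both lie on the plus strand, the Epcam window at chr17:87635729-87635978 and the Snai1 window at chr2:167537945-167538194.
Epcam: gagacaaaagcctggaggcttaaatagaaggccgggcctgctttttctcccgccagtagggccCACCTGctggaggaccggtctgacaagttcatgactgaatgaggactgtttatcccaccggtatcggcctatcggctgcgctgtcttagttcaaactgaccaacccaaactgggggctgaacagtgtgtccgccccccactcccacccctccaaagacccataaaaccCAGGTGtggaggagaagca
Snai1: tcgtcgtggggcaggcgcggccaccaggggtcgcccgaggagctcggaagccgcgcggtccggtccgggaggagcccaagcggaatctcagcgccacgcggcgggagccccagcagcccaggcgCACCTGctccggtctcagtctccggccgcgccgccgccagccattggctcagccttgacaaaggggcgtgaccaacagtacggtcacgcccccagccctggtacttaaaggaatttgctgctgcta
In the Epcam window the first bases of the E-boxes lie 187 and 19 bases before the start, and in the Snai1 window 126 bases before it. The windows of Twist1 and Twist2 and the 4 windows of Zeb2 hold none of these letters. Of 32851 promoter windows of the same length, 17.2% hold at least 1 such E-box and 2.06% at least 2. The grainyhead motif AACCNGGTT, which reads the same on both strands, is in 0.24% of all windows and in none of the windows searched for these 5 members. Windows of Cdh1, Cdh2, Grhl2, Snai2 and Zeb1 were not analysed here, and no binding was measured in this series.

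Sums per gene cover the following loci. On GRCm38, Cdh1 (Entrez 12550) lies on chromosome 8 from 106603350 to 106670247, Cdh2 (12558) on chromosome 18 from 16588877 to 16809246, Epcam (17075) on chromosome 17 from 87635979 to 87651127 and Grhl2 (252973) on chromosome 15 from 37232821 to 37363569. Snai1 (20613) lies on chromosome 2 from 167538195 to 167542814, Snai2 (20583) on chromosome 16 from 14705852 to 14709395, Zeb1 (21417) on chromosome 18 from 5591327 to 5775468 and Zeb2 (24136) on chromosome 2 from 44983512 to 45117442. Twist1 (22160) lies on chromosome 12 from 33957671 to 33959831 and Twist2 (13345) on chromosome 1 from 91801461 to 91848034. Epcam and Grhl2 stood below 1 CPM (count per M, that is per mega count, scaled with TMM factors) in both feeder groups and Cdh1 in control feeders, and passed the filter on low counts through their other groups; all 10 passed it.

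The libraries held 15.12 to 19.83 M counts each. Trp53 RNA, which encodes p53, was present in all 18 libraries; it stood at 244 to 326 CPM in p53-defective feeders against 112 to 124 in control feeders (log2 1.31 ± 0.09), and the labels do not name the alteration. Summed over 15 ES cell markers, the level was 4120 to 4270 CPM in ES cells on control feeders and 368 to 503 on p53-defective feeders. It was 5500 to 5620 CPM after feeder removal, 6740 to 6940 with ATN161 and 141 to 177 in the feeder groups, where Pou5f1, Zfp42, Tdgf1, Utf1, Fgf4 and Sall4 had no counts. Summed over 15 fibroblast markers, 1 of which is Twist2, the level was 33200 to 40700 CPM in control feeders and 4800 to 7180 in p53-defective feeders. It was 6130 to 6500 CPM in ES cells on control feeders, 15000 to 22400 on p53-defective feeders, 3740 to 4240 after feeder removal and 863 to 950 with ATN161. Between the ES cells on either feeder the collagen gene Col1a1 held much of the difference in the sum (8230 against 1520 CPM). Of the 15 markers, 7 were higher on p53-defective feeders, 4 lower and 4 not called (median 0.18), with Lum at -4.89 and Postn at -1.92. Squared differences between replicates were 1.94 to 42.15 times what counting alone gives (chi-square per degree of freedom). They were largest between replicates 2 and 3 of ES cells on p53-defective feeders (42.15) and between replicates 1 and 3 of p53-defective feeders (27.28).

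Cdh1 RNA was high in ES cell cultures and low in feeders alone. It was read at 430, 430 and 404 CPM after feeder removal, 299, 308 and 299 on control feeders, and 296, 292 and 287 with ATN161. On p53-defective feeders it stood at 24.8, 24.2 and 38.0 CPM, in p53-defective feeders alone at 1.78, 2.25 and 3.31, and in control feeders at 0.170, 0.0578 and 0.116. The 6 groups thus lay apart from each other, although the lowest library on control feeders (299) and the highest with ATN161 (296) nearly met. Cdh2 had a different order. It was highest on p53-defective feeders (175, 142 and 214 CPM) and in those feeders alone (175, 170 and 182), 2 groups that overlapped. Control feeders followed at 73.7, 77.1 and 76.3 CPM, then ES cells on control feeders at 23.9, 24.5 and 20.5, after removal at 13.1, 14.6 and 14.9, and with ATN161 at 6.07, 6.44 and 5.66. Apart from the overlapping pair, no neighbours in this order shared a value.

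Set per transcript length (TPM, transcripts per M), the ratio of Cdh1 to Cdh2 was 14.5 ± 1.27 in ES cells on control feeders (SD, n = 3; 13.8, 13.8 and 16.0). It was 32.7 ± 3.30 after feeder removal (36.2, 32.3 and 29.7) and 53.2 ± 2.89 with ATN161 (53.7, 50 and 55.7). In ES cells on p53-defective feeders it was 0.179 ± 0.0206 (0.156, 0.187 and 0.196), so Cdh2 exceeded Cdh1 in those 3 libraries. The feeders alone stood at 0.0152 ± 0.00447 (p53-defective) and 0.00163 ± 0.000921 (control).

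**Figure D1:**
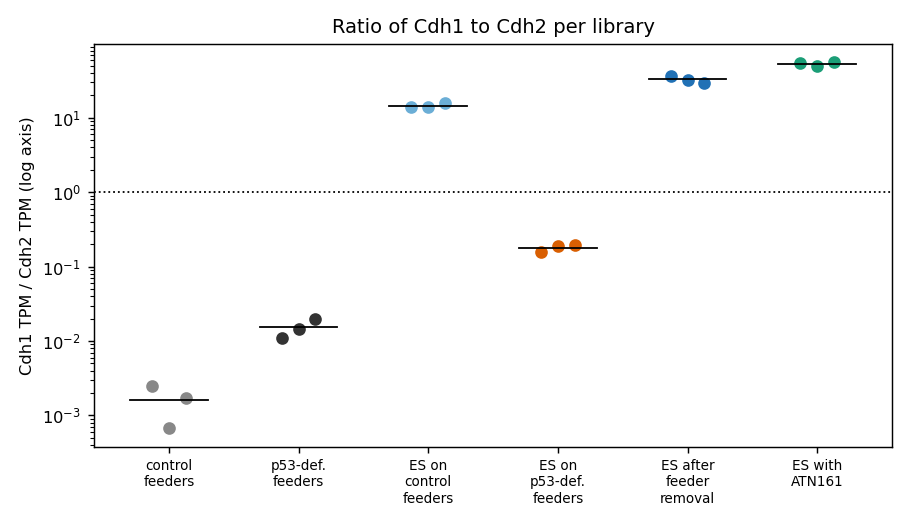
Ratio of Cdh1 to Cdh2 TPM in each of the 18 libraries on a log axis; points are libraries, bars are means of 3, and the dotted line marks equal levels. The 9 libraries of ES cells on control feeders, after removal and with ATN161 lie above the line and the other 9 below it.

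Epcam, an adhesion molecule of epithelia and of ES cells, had 184, 163 and 186 CPM after feeder removal, 176, 179 and 172 with ATN161, and 149, 148 and 153 on control feeders. On p53-defective feeders it had 11.6, 14.2 and 15.4 CPM. It was barely detected in feeders alone, with 11 reads in the 3 p53-defective feeder libraries (0.190 to 0.245 CPM) and 4 in the control feeders (0.0578 to 0.113 CPM). Removal and ATN161 overlapped at the top of the order, and the other neighbours did not. Grhl2 had 56.9, 53.5 and 46.7 CPM after removal, 47.7, 51.6 and 48.6 on control feeders, and 30.6, 31.7 and 29.9 with ATN161. On p53-defective feeders it had 1.58, 1.44 and 1.78 CPM, and the feeders alone gave 10 reads (p53-defective) and 1 read (control). The 3 genes thus shared a pattern of high ES cell levels, and Grhl2 differed from Cdh1 and Epcam in its lower level with ATN161. The curated Grhl2 transcript carried 0 to 54.4% of its reads in the 12 libraries with at least 20, and the rest were assigned to predicted models, so that Grhl2 values rest on those models.

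**Figure D2:**
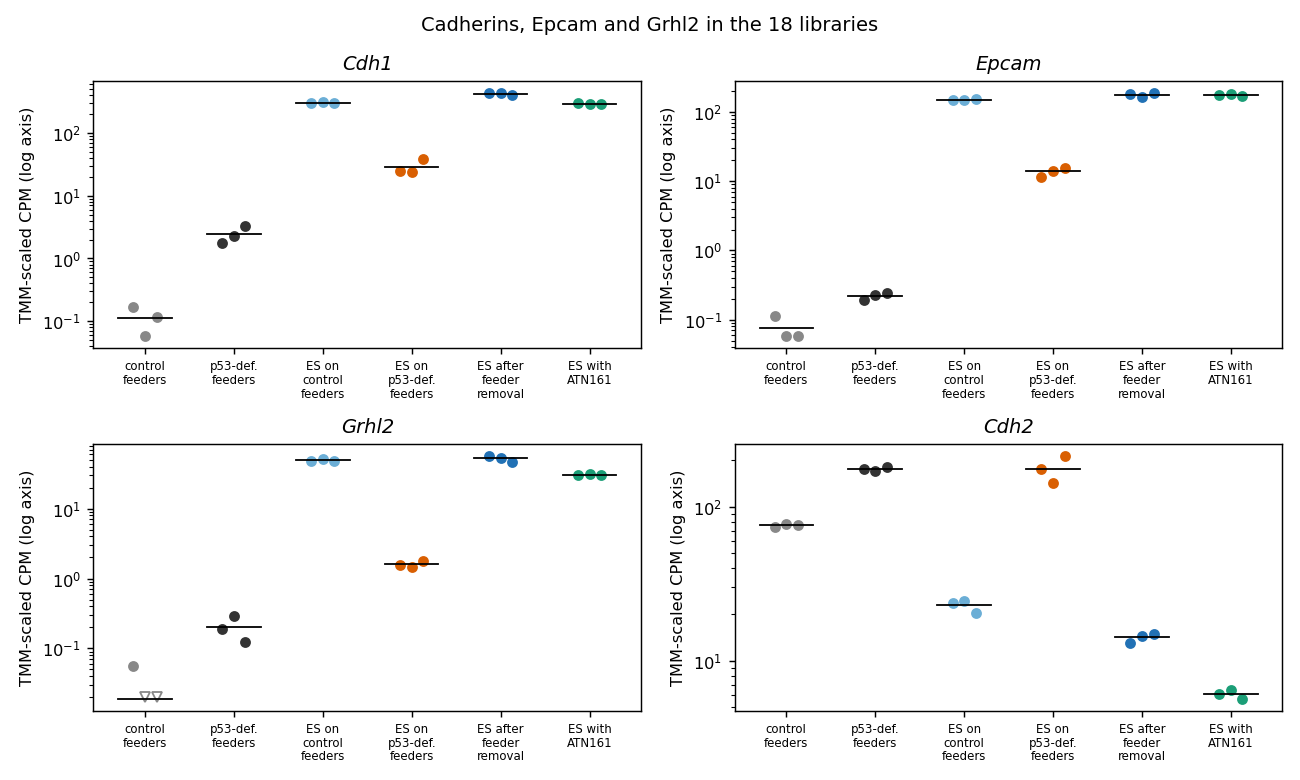
TMM-scaled CPM of Cdh1, Epcam, Grhl2 and Cdh2 on log axes, with points for libraries and bars for means of 3; open triangles mark 2 libraries with no Grhl2 reads, drawn at the bottom of the axis. Cdh1, Epcam and Grhl2 are highest in 3 of the 4 ES cell groups, and Cdh2 in the 2 groups with p53-defective feeders.

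The 6 EMT factors were all read in every library, in ES cell groups too. Per transcript length, Twist2 led in control feeders at 150 ± 10.8 TPM (SD, n = 3), followed by Twist1 (82.9 ± 3.31), Snai2 (63.4 ± 0.754), Snai1 (27.4 ± 4.16), Zeb1 (24.4 ± 1.69) and Zeb2 (12 ± 0.457). In p53-defective feeders Snai2 led at 81.8 ± 14.6 TPM, with Twist1 at 30.8 ± 4.56, Twist2 at 30.6 ± 0.982, Snai1 at 19.5 ± 1.96, Zeb1 at 15.1 ± 0.418 and Zeb2 at 8.53 ± 1.49. The order of the factors therefore differed between the feeder groups. After feeder removal Twist2 (24.1 ± 1.91 TPM) and Zeb1 (17.1 ± 0.665) led, and Zeb2 was lowest (2.09 ± 0.352). With ATN161 Twist2 stood at 12.7 ± 0.709 TPM, Twist1 at 9.25 ± 0.957, Zeb1 at 7.45 ± 0.559 and Zeb2 at 0.433 ± 0.0208. On p53-defective feeders ES cell cultures had most Twist1 (35.7 ± 1.57 TPM), Snai1 (29.8 ± 2.36) and Twist2 (21.7 ± 2.03), and least Zeb2 (2.69 ± 0.630).
Across groups, Snai1, Zeb1 and Snai2 each had their own order on the CPM scale. Snai1 was highest in ES cells on p53-defective feeders (37.5, 41.9 and 39.0 CPM), above both groups of feeders alone. Snai2 was highest in p53-defective feeders alone, where the libraries spread widely (96.9, 89.1 and 65.9 CPM), with the control feeders just below (62.7, 62.2 and 64.5). Zeb1 varied least over the groups, from 73.5 to 84.2 CPM in control feeders to 27.4 to 30.6 with ATN161, and its levels in ES cells on control feeders and after removal overlapped.

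**Figure D3:**
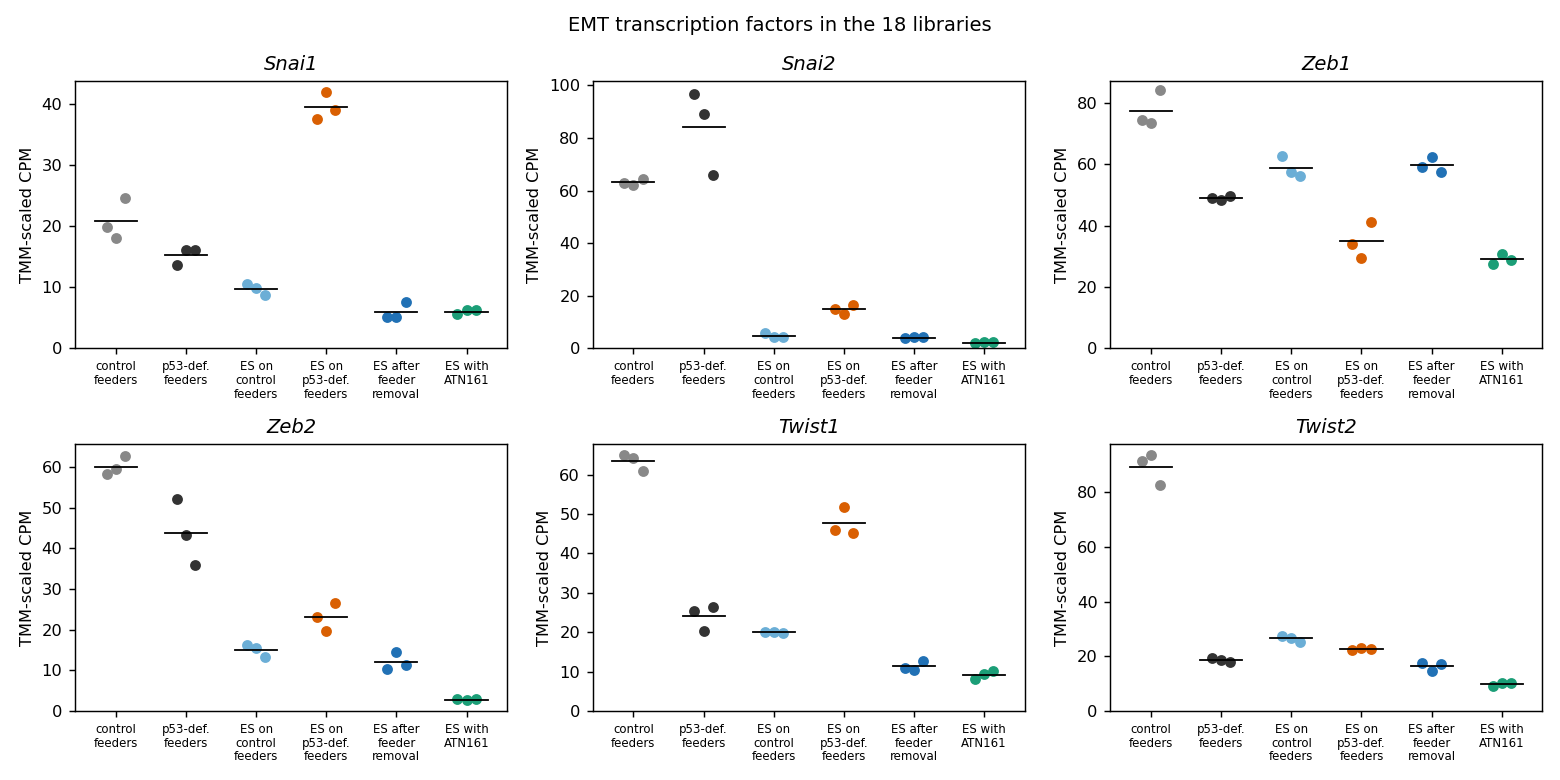
TMM-scaled CPM of the 6 EMT factors on linear axes from 0, with points for libraries and bars for means of 3. Snai1 is highest in ES cells on p53-defective feeders, Snai2 in p53-defective feeders, and Zeb1, Zeb2, Twist1 and Twist2 in control feeders.

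The feeders alone show how the p53 label went with these genes where no ES cells were present. In p53-defective feeders Cdh2 was 2.32-fold higher and the Twist and Zeb factors were lower, Twist2 most. Twist2, a basic helix-loop-helix factor of mesenchyme, had 19.5, 18.6 and 18 CPM against 91.4, 93.4 and 82.5, which is -2.25 ± 0.08 as log2 fold change with SE (adjusted p = 6.24e-17, edgeR quasi-likelihood test, Benjamini-Hochberg over all genes tested, as for every adjusted p below unless another tool is named). Twist1 had 25.5, 20.4 and 26.5 CPM against 65.0, 64.2 and 60.9 (-1.39 ± 0.10, adjusted p = 1.07e-11). Neither gene's groups overlapped. Zeb1 (-0.66 ± 0.09), Zeb2 (-0.46 ± 0.12) and Snai1 (-0.45 ± 0.13) fell less, and Snai2 rose by 0.41 ± 0.11 (adjusted p = 0.00218). Snai1 missed the threshold without p53-defective replicate 1 (-0.31, adjusted p = 0.0513), and Snai2 missed it on the deposited TPM (0.35, adjusted p = 0.0638, limma). Of the epithelial members, Cdh1 rose from 6 to 121 reads, a ratio of 21.3 with a 95% counting interval of 9.52 to 59.3 (adjusted p = 2.9e-08), at a level far below the ES cell groups. Grhl2 had 10 reads against 1, a ratio of 10.6 (1.5 to 459), with no call on curated transcripts alone. Epcam had 11 reads against 4, a ratio of 2.91 (0.862 to 12.5; adjusted p = 0.0676, but called on the deposited TPM at 0.83 with limma). Intervals cover counting error only. In all, 4 members were called higher, with Grhl2 among them on its 11 reads, 5 lower and 1 was not called, where 74.3% of all 15389 genes tested were called, 35.9% higher and 38.4% lower. The members' median log2 fold change was -0.02 and that of all genes -0.01. Summed over 12 genes, mesothelial and epithelial markers stood at 1630 to 2510 CPM in p53-defective feeders against 67.3 to 79.4. Of these 12, 9 were higher, 2 lower and 1 not called (median 4.02). Fibroblast markers fell as given above, with all 15 lower. Macrophage markers (10 genes) stood at 11.1 to 15 against 132 to 181 CPM, with 9 lower and 1 higher (median -8.2). Endoderm markers (8 genes) stood at 161 to 174 against 5.72 to 6.66 CPM. Of these 8, 3 were higher (Gata4, Gata6 and Foxa2), 1 lower and 4 not called (median 0.04). In p53-defective feeders the endoderm markers Sox17, Hnf4a and Cer1 and the macrophage markers Adgre1, Ptprc, C1qa, C1qb and Fcer1g had no counts. Sox17 and Cer1 had none in control feeders either. The part of such cells in the members' changes was not tested.

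ES cells on the 2 kinds of feeder differed in all 10 members, 5 of them higher and 5 lower on p53-defective feeders. The 3 epithelial members fell, with log2 fold changes for Cdh1 of -3.38 ± 0.13 (24.8, 24.2 and 38.0 against 299, 308 and 299 CPM, adjusted p = 1.48e-16), Epcam of -3.44 ± 0.09 (adjusted p = 2.66e-19) and Grhl2 of -4.94 ± 0.13 (1.58, 1.44 and 1.78 against 47.7, 51.6 and 48.6 CPM, adjusted p = 4.38e-19). Cdh2 rose 7.70-fold (log2 2.95 ± 0.11, adjusted p = 1.43e-16). Of the EMT factors, Snai1 rose most, with 37.5, 41.9 and 39.0 CPM against 10.5, 9.86 and 8.66 (2.03 ± 0.13, adjusted p = 1.03e-12). Snai2 rose by 1.64 ± 0.15 (14.9, 13.2 and 16.6 against 5.89, 4.14 and 4.33 CPM) and Twist1 by 1.26 ± 0.10 (46.0, 51.9 and 45.2 against 20, 20.1 and 19.8 CPM). None of the 10 members had overlapping groups here. The share of all genes whose groups lay apart was not computed for any comparison. Zeb1 fell (-0.75 ± 0.09). Zeb2 rose by 0.63 ± 0.13 on the count scale, but on the deposited TPM it stood at -0.03 (adjusted p = 0.873, limma), where the median of all genes moved from -0.18 to -0.79. Twist2 (-0.24 ± 0.08, adjusted p = 0.00984) missed the threshold without any 1 of the 3 libraries on control feeders (-0.17 to -0.11), without replicate 3 on p53-defective feeders (-0.13), with no filter (-0.13) and in a fit of these groups alone (-0.12). Of all genes 83.4% were called in this comparison, 36.6% higher and 46.7% lower; on the deposited TPM 22.7% of called genes were higher, against 43.9%. The members' median log2 fold change was 0.20.

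RNA of genes specific to ES cells moved with these changes. Whether the number of ES cells or their state differed was not tested. Genes specific to ES cells were 429 genes at least 8-fold higher after feeder removal and with ATN161 than in both feeder groups. Members were left out, and the groups of this list are among those compared below. The ES-specific genes had a median log2 fold change of -3.43, and 76 feeder-specific genes had 2.57. With libraries scaled on the ES-specific genes, Cdh1 stood at 0.01 (adjusted p = 0.958) and Epcam at -0.07 (adjusted p = 0.54), neither of them called. Grhl2 was still lower on that scale, at -1.56. The other 7 members were higher on that scale, including Zeb1 at 2.64 and Twist2 at 3.15, whose direction turned, while the median of all genes stood at 3.19. On that scale 97.0% of called genes were higher. Of the factors, Snai1 (5.41), Snai2 (5.02), Twist1 (4.63) and Zeb2 (4.02), and also Cdh2 (6.34), lay above that median. The 12 mesothelial and epithelial markers moved as well, to 2330 to 2420 CPM from 47.6 to 51.2. Their part in these changes was not tested.

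The effect of the p53 label differed with and without ES cells for 6 of the 7 members that were well read in feeders, on the count scale. The interaction, the log2 difference in co-culture minus that in feeders alone, was 2.65 ± 0.14 for Twist1 (adjusted p = 8.22e-14), 2.48 ± 0.18 for Snai1 (adjusted p = 2.21e-11) and 2.01 ± 0.11 for Twist2 (adjusted p = 2.98e-13). Twist1 and Snai1 were lower in p53-defective feeders alone and higher when ES cells were present. Cdh2 (1.73 ± 0.15), Snai2 (1.23 ± 0.19) and Zeb2 (1.09 ± 0.18) also had positive terms, Zeb2 without a call on the deposited TPM (0.47, adjusted p = 0.0799, limma). Cdh1 was higher in p53-defective feeders alone (121 reads against 6) and lower in co-culture (-3.38 ± 0.13). Cdh1, Epcam and Grhl2 had called negative terms, but with 1 to 121 reads per feeder group no size is read from these terms. Grhl2 lost this call on curated transcripts alone (-2.16, adjusted p = 1). The Zeb1 term was not called on the count scale (-0.09 ± 0.13, adjusted p = 0.548), and on the deposited TPM it was -0.72 (adjusted p = 0.0023, limma). Of all genes 73.6% had a called interaction, 38.8% positive and 34.8% negative, and on the deposited TPM 32.0% of the called terms were positive, against 52.8%. Markers of other cell kinds moved with the term: it was called positive for 15 of 15 fibroblast markers (median 3.91), 10 of 10 macrophage markers (median 8.74) and 8 of 12 mesothelial and epithelial markers (median 2.77). Their part in the members' terms was not tested. The members' median term was 1.16 and that of all genes 0.04.

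**Figure D4:**
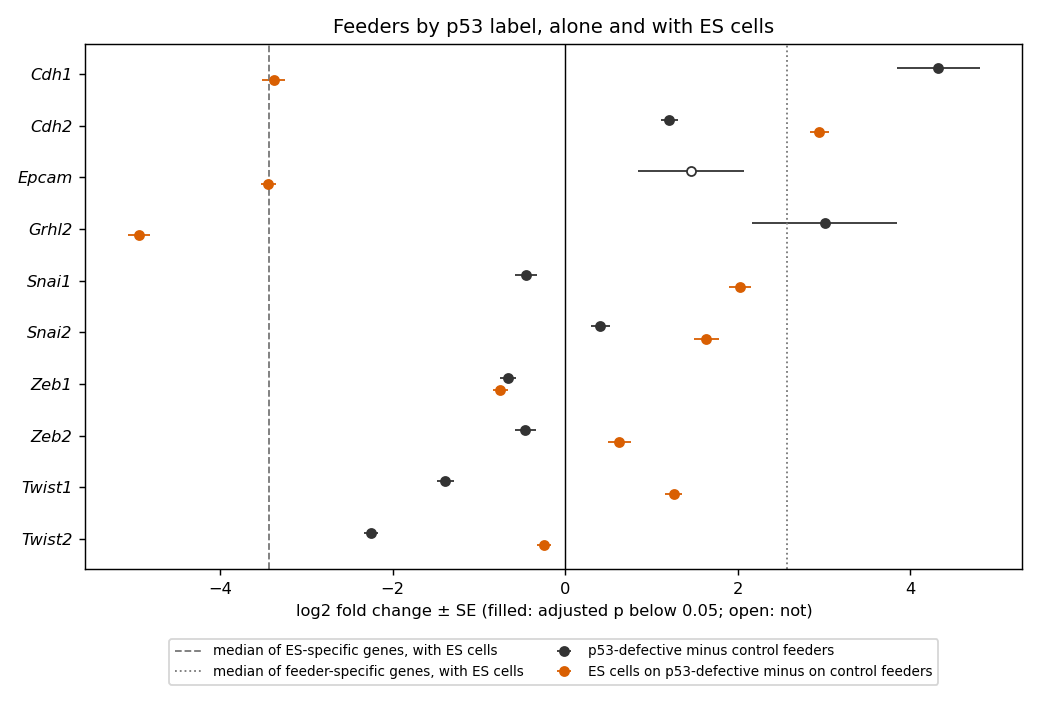
Log2 fold changes of the 10 members with the p53 label, in feeders alone (black) and in ES cell co-cultures (orange), with bars of 1 SE on the count scale; the broken lines are the medians of ES-specific and feeder-specific genes in co-culture. Cdh1 and Epcam lie at the ES-specific median of -3.43 and Grhl2 below it. Scaling on ES-specific genes, which moves the median of all genes by 3.37, puts Zeb1 and Twist2 above 0 and Cdh1 at 0.01 (not called), and Zeb2 stands at -0.03 (not called) on the deposited TPM.

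ES cells on p53-defective feeders were also set beside those feeders alone and beside ES cells after removal. The latter had been grown on control feeders, so they need not match the ES cells of this co-culture. Snai1 stood above both groups, at 37.5 to 41.9 CPM against 13.6 to 16.1 in the feeders and 5.07 to 7.53 after removal. It did so in TPM as well (28.3 to 32.5 against 17.3 to 21.0 and 5.87 to 8.53). Twist1 did likewise, at 45.2 to 51.9 CPM against 20.4 to 26.5 and 10.3 to 12.8, narrowly so in TPM (34.5 to 37.5 against 25.6 to 34.4 and 11.8 to 14.4). Zeb1 stood below both, at 29.3 to 41.2 CPM against 48.3 to 49.7 and 57.5 to 62.4, and in TPM at 4.99 to 8.72 against 14.8 to 15.6 and 16.5 to 17.8. The other members lay between or overlapped with the parts in TPM. Against the feeders alone, Snai1 was higher by 1.37 ± 0.12 (adjusted p = 8.01e-10) and Twist1 by 0.98 ± 0.10 (adjusted p = 4.53e-09; 0.22 on the deposited TPM, adjusted p = 0.0558, limma). Snai2 was lower by 5.62-fold (-2.49 ± 0.13, adjusted p = 5.72e-14), with 14.9, 13.2 and 16.6 CPM against 96.9, 89.1 and 65.9, and Zeb2 was lower too (-0.92 ± 0.13). Cdh2 was not called on the count scale (0.01 ± 0.10, adjusted p = 0.932) and fell on the deposited TPM (-0.76, adjusted p = 0.000142, limma). Twist2 turned from 0.27 ± 0.08 to -0.5 on the deposited TPM (adjusted p = 2.71e-05, limma), and was not called in a fit of these groups alone (0.16, adjusted p = 0.208). Epcam (log2 5.91 ± 0.20), Cdh1 (3.56 ± 0.18) and Grhl2 (2.94 ± 0.33) were higher with ES cells, and Zeb1 was lower (-0.49 ± 0.09; not called on curated transcripts alone, -0.28). In all, 6 members were higher, 3 lower and 1 not called, where 79.7% of all genes were called, 46.7% higher and 33.0% lower; on the deposited TPM 31.6% of called genes were higher, against 58.6%, and the median of all genes moved from 0.27 to -0.41. The members' median was 0.62. The 15 fibroblast markers were all higher than in the feeders alone; their part in the rise of Snai1 and Twist1 was not tested.

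Feeder removal was compared with ES cells on control feeders. Cdh1 rose 1.4-fold (430, 430 and 404 against 299, 308 and 299 CPM; log2 0.48 ± 0.11, adjusted p = 0.000983) and Cdh2 fell 1.62-fold (13.1, 14.6 and 14.9 against 23.9, 24.5 and 20.5 CPM; -0.69 ± 0.12, adjusted p = 4.59e-05). Of the EMT factors Twist1 (-0.81 ± 0.11, adjusted p = 1.86e-06), Snai1 (-0.71 ± 0.15, adjusted p = 0.000358) and Twist2 (-0.69 ± 0.08, adjusted p = 4.91e-07) fell. The groups of these 5 genes and of Epcam did not overlap, but the share of all genes without overlap was not computed. Zeb1 (0.03 ± 0.09), Snai2 (-0.22 ± 0.18), Zeb2 (-0.31 ± 0.14, adjusted p = 0.0678) and Grhl2 (0.09 ± 0.08) were not called and overlapped; Zeb2 was called with no filter (-0.36) or one of 5 CPM (-0.37), in a fit of these groups alone (-0.31), and without replicate 2 after removal (-0.51) or without replicate 3 on control feeders (-0.44). The small rise of Epcam (0.25 ± 0.07, adjusted p = 0.00713) was not called without any 1 library on control feeders (0.19 to 0.21) or without replicate 1 or 3 after removal (0.17 and 0.16). On the deposited TPM Cdh1 was not called (0.41, adjusted p = 0.112, limma). Thus 2 members rose, 4 fell and 4 were not called, where 52.0% of all genes were called, 25.5% higher and 26.5% lower; on the deposited TPM 37.5% of called genes were higher, against 49.0%. The members' median was -0.26, beside -0.01 for all genes. ES-specific genes had a median of 0.31 and feeder-specific genes of -0.78.

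With ATN161 in place of feeders, 8 members fell against ES cells on control feeders, 1 rose and 1 was not called. Zeb2 fell 5.25-fold, from 16.2, 15.4 and 13.2 to 2.88, 2.64 and 3.01 CPM (-2.39 ± 0.17, adjusted p = 7.05e-11). Cdh2 fell 3.79-fold, from 23.9, 24.5 and 20.5 to 6.07, 6.44 and 5.66 CPM (-1.92 ± 0.13, adjusted p = 3.26e-11). Twist2 (-1.43 ± 0.09), Twist1 (-1.11 ± 0.11), Snai2 (-1.10 ± 0.20) and Snai1 (-0.68 ± 0.14) fell as well. Zeb1, a zinc finger repressor of epithelial genes, fell from 62.5, 57.3 and 56.1 to 27.4, 30.6 and 28.8 CPM (-1.02 ± 0.09, adjusted p = 4.69e-09). Grhl2, an epithelial member, fell with them, from 47.7, 51.6 and 48.6 to 30.6, 31.7 and 29.9 CPM (-0.68 ± 0.09, adjusted p = 5.78e-07). No member had overlapping groups in this comparison, but the share of all genes without overlap was not computed. Cdh1 was not called (-0.05 ± 0.11, adjusted p = 0.724), except in a fit of these groups alone (-0.14, adjusted p = 0.000651). Epcam (0.23 ± 0.07, adjusted p = 0.00857) was not called without any 1 library on control feeders (0.15 to 0.17), under other filters or on curated transcripts (0.13 to 0.15), and stood at -0.02 on the deposited TPM. Of all genes 61.6% were called, 33.6% higher and 28.0% lower, and on the deposited TPM 26.5% of called genes were higher, against 54.6%. The members' median was -1.06, beside 0.07 for all genes, 0.48 for ES-specific and -1.38 for feeder-specific genes. All 15 fibroblast markers fell, as given in the summed levels above; their part in the falls was not tested.

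The ATN161 and removal cultures differed in 8 members, all lower with ATN161. Zeb2 was 4.24-fold lower, at 2.88, 2.64 and 3.01 against 10.3, 14.4 and 11.4 CPM (-2.08 ± 0.18, adjusted p = 2.19e-09). Cdh2 was 2.35-fold lower (-1.23 ± 0.14, adjusted p = 1.6e-07) and Zeb1 2.06-fold lower (27.4, 30.6 and 28.8 against 59.2, 62.4 and 57.5 CPM; -1.04 ± 0.09, adjusted p = 6.18e-09). Grhl2 (-0.77 ± 0.09, adjusted p = 1.74e-07) and Cdh1 (-0.53 ± 0.11, adjusted p = 0.000383) were lower too, while Epcam (-0.01 ± 0.07, adjusted p = 0.881) and Snai1 (0.03 ± 0.16, adjusted p = 0.903) were not called and overlapped. Snai2 (-0.88 ± 0.21) and Twist2 (-0.74 ± 0.09) fell. Twist1 (-0.30 ± 0.12, adjusted p = 0.0348) was not called without removal replicate 3 (-0.23) or without ATN161 replicate 1 (-0.21) or 2 (-0.31). On curated transcripts alone, which hold few of its reads, Grhl2 was not called here (-0.85, adjusted p = 0.353) or against ES cells on control feeders (-0.74, adjusted p = 0.414). Of all genes 55.4% were called, 28.6% higher and 26.8% lower, and on the deposited TPM 29.8% of called genes were higher, against 51.7%. The members' median was -0.76, beside 0.03 for all genes, 0.12 for ES-specific and -0.64 for feeder-specific genes. Fibroblast markers summed to 3740 to 4240 CPM after removal and 863 to 950 with ATN161, and ES cell markers to 5500 to 5620 and 6740 to 6940 CPM. Their part in the falls was not tested.

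**Figure D5:**
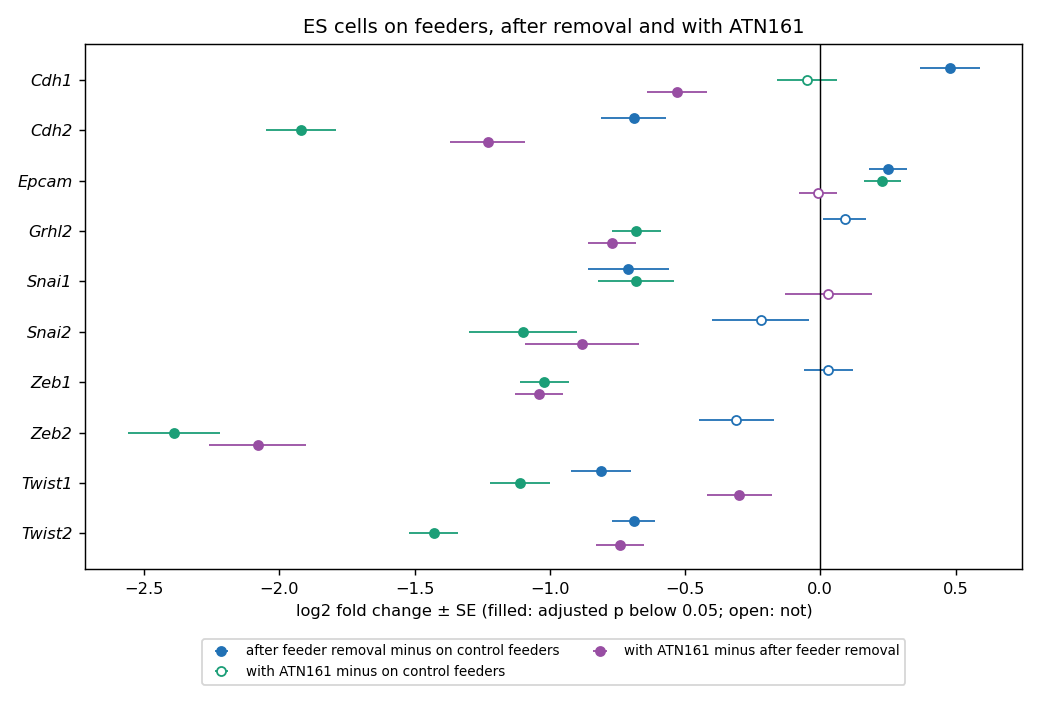
Log2 fold changes of the 10 members between ES cells on control feeders, after feeder removal and with ATN161, with bars of 1 SE on the count scale; open points were not called. Zeb2, Cdh2 and Zeb1 show the 3 largest falls of ATN161 against removal; Epcam against control feeders is 0.23 here and -0.02 on the deposited TPM, and comparisons that share a group are not independent.

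ES cells after removal were also set beside control feeders. Cdh1 had 23342 reads against 6, a ratio of 3670 (95% counting interval 1680 to 9990), Epcam 9831 against 4, a ratio of 2320 (904 to 8500), and Grhl2 2901 against 1, a ratio of 2730 (490 to 108000). The removal libraries still held fibroblast markers, summed to 3740 to 4240 CPM against 33200 to 40700 in control feeders. The part of feeder RNA in their levels was not tested. The 7 mesenchymal members were lower in the removal libraries, most of all Snai2 (15.3-fold, -3.94 ± 0.15, adjusted p = 6.03e-17). Twist1 (-2.48 ± 0.10), Twist2 (-2.44 ± 0.08), Cdh2 (-2.41 ± 0.12), Zeb2 (-2.32 ± 0.13) and Snai1 (-1.81 ± 0.14) followed. Zeb1 differed least, by -0.37 ± 0.09 (59.2, 62.4 and 57.5 against 74.3, 73.5 and 84.2 CPM, adjusted p = 0.000579). All 10 members were thus called, where 85.9% of all genes were, 45.1% higher and 40.8% lower. The members' median was -2.06 and that of all genes 0.09.

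Other genes of the program were described from lists, to be read against the shares of all genes called that are given above; 6 of the 20 mesenchymal genes are also on the fibroblast list. Of 20 mesenchymal program genes, 1 rose and 14 fell in p53-defective against control feeders (median log2 fold change -1.54), among them the matrix gene Postn (-10.91 ± 0.19) and the receptor gene Pdgfrb (-5.23 ± 0.14). In co-culture, 15 rose and 2 fell on p53-defective feeders (median 1.57), with the surface enzyme Nt5e at 4.25 ± 0.18 and the adhesion gene Ncam1 at 2.44 ± 0.11. All 20 had a positive interaction (median 3.16), as did the fibroblast and macrophage markers given above. After feeder removal 13 fell and none rose against ES cells on control feeders (median -0.55), and with ATN161 19 fell and none rose (median -1.80), with the intermediate filament gene Vim at -1.76 ± 0.08 and the receptor kinase gene Axl at -2.36 ± 0.09. Against removal, 16 fell and 1 rose with ATN161 (median -1.50).

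Of 24 junction genes of epithelia, 12 rose and 6 fell in p53-defective feeders (median 0.44), among them the tight junction genes Cgn (51.7 against 1.94 CPM, 4.74 ± 0.13) and F11r (3.30 ± 0.10), while the desmosomal gene Perp fell (-2.24 ± 0.11). In co-culture 7 rose and 14 fell on p53-defective feeders (median -0.71), the desmosomal cadherin gene Dsg2 at -3.56 ± 0.11 and F11r at 2.43 ± 0.10. With ATN161 5 rose and 4 fell against control feeders and 15 were not called (median -0.05), and after removal 4 rose and 10 fell (median -0.20). Of 16 measured epithelial regulators, 14 fell and 2 rose in ES cells on p53-defective feeders (median -2.70), among them the membrane protease gene St14 (-3.44 ± 0.08) and the transcription factor gene Klf5 (-3.15 ± 0.09). With ATN161, 9 rose and 2 fell (median 0.32), including the transcription factor genes Elf3 (99.4 ± 3.78 against 44.3 CPM, 1.17 ± 0.09) and Grhl3 (67.6 ± 1.55 against 39.1 CPM, 0.79 ± 0.08). Grhl3, the paralogue of Grhl2, thus rose where Grhl2 fell.

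Among 9 other classical and related cadherins, 8 fell and 1 rose in p53-defective feeders (median -6.52). Cdh11, the cadherin of osteoblasts and fibroblasts, fell from 760 to 134 ± 20.3 CPM (-2.51 ± 0.10), opposite to Cdh2. In co-culture Cdh3, which encodes P-cadherin, rose on p53-defective feeders to 267 ± 36 from 78.8 CPM (1.76 ± 0.11). With ATN161 4 fell, and none rose, against control feeders, with Cdh11 at -2.11 ± 0.10 and Cdh3 at -0.69 ± 0.11. Of 10 catenins and cadherin adaptors, 3 rose and 1 fell with ATN161 (median 0.05), Ctnna1 (α-catenin, 0.59 ± 0.06) and Ctnnb1 (β-catenin, 0.49 ± 0.06) among them. In ES cells on p53-defective feeders Ctnnb1 was at 653 ± 27.8 against 990 CPM (-0.60 ± 0.06). Of 24 further EMT regulators, 15 fell and 5 rose with ATN161 against control feeders (median -0.74), with the receptor gene Tgfbr2 at -2.37 ± 0.10 and the transcription factor gene Prrx1 at -2.64 ± 0.13. After removal 12 fell and 3 rose (median -0.33). In co-culture 11 rose and 8 fell on p53-defective feeders (median 0.18). In feeders alone 14 fell and 4 rose with the p53 label (median -0.46), with the E-protein gene Tcf4 at -2.50 ± 0.09.

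Over the 18 libraries, which share 6 groups and the scaling, log2 CPM of Cdh1 ran with Epcam (Pearson r = 0.98) and Grhl2 (r = 0.97), and Epcam ran against Snai2 (r = -0.98). Zeb1 was nearly unrelated to Cdh2 (r = 0.19) and to Snai1 (r = 0.01) and ran closest to Twist2 (r = 0.74). Snai1 ran with Twist1 (r = 0.90). Among all tested genes with at least 10 CPM in a group, the profile closest to Epcam was Esrrb (r = 0.9989), a factor of ES cells, and that closest to Cdh1 was Pitpnc1 (r = 0.9973). Cdh2 was closest to Arhgef5 (r = 0.9955), Snai2 to Pafah1b2 (r = 0.9956), Twist1 to Lix1l (r = 0.9945) and Grhl2 to Slc30a2 (r = 0.9942). Zeb2 was closest to Pcdh19 (r = 0.9890), Twist2 to Zcchc24 (r = 0.9873) and Snai1 to Ppp1r18 (r = 0.9859). The closest gene to Zeb1, Flrt2, had the lowest of these values (r = 0.9746).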

How the data were processed

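Messenger RNA of 18 libraries was measured. Per the labels' protocols, Trizol RNA went into a TruSeq mRNA kit; strand is not given, so reads of a gene and an antisense partner cannot be told apart. Builds mm10 and GRCm38 and, with no role stated, StringTie 1.3.3b, DESeq2 1.2.10, HISAT2 2.1.0 and SAMtools 1.4 appear in the submitters' processing notes. The authors deposited estimated counts (expected counts), FPKM, TPM and a normalised count signal for 75416 RefSeq transcripts, with group averages. FPKM served only to recompute the Cdh1 to Cdh2 ratio, and the signal and the averages were not used. Counts were summed per Entrez gene and rounded. Genes were tested with edgeR 4.0.16 in R 4.3.3 (quasi-likelihood, robust, TMM, filterByExpr, which removed 4241 genes and kept 15389), with all 18 libraries in 1 fit, and a call needed an adjusted p (Benjamini-Hochberg) under 0.05. SE is the log2 fold change divided by the root of F. The scripts were tested on simulated data. Alternatives were size factors and the Wald test of DESeq2 1.42.0, no filter, 5 CPM in 3 libraries, curated transcripts, a replicate block, only the groups compared, ES-specific scaling and each library left out. An alternative added after seeing the data was limma 3.58.1 (trend, robust) on log2 of summed TPM plus 0.1. ES-specific and feeder-specific genes needed an 8-fold difference and 10 CPM. Members and lists were chosen with earlier results of these data known. Named from lists were at most 4 genes with the smallest p per comparison, and for each member the 3 genes closest by Pearson r (prior count 2), of which the first is printed.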

Additional observations from a re-analysis of the deposited data

Results flagged for a closer look

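The effect of the p53 label in ES cell co-culture differed from its effect in feeders alone by the interaction test of edgeR for 9 members. On the log2 scale, as co-culture minus feeders alone, the term was -7.71 for Cdh1, -4.9 for Epcam and -7.95 for Grhl2, which have 1 to 121 reads per feeder group; these 3 are fitted values that depend on the prior count and are no measure of size, and Grhl2 lost its call on curated transcripts alone (-2.16). It was 1.73 for Cdh2, 2.48 for Snai1, 1.23 for Snai2, 1.09 for Zeb2, 2.65 for Twist1 and 2.01 for Twist2. Of all genes tested, 73.6% had a called interaction.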

How the results depend on the processing

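Under each alternative run, the counts of called genes, the counts of called members and the Cdh1 to Cdh2 ratio stayed within 1.5 times (counts) or 1 SD (ratio) of the values reported (268 of 268 recomputed values). For the ratio this could hardly fail, so nothing is drawn from it. A mean with 1 replicate left out always lies within 1 SD, and FPKM and TPM give the same ratio in a library. Curated transcripts carry nearly all reads of Cdh1 and Cdh2. Total counts hide the split by direction, which moved from 43.9% to 97.0% higher on ES-specific scaling in ES cells on p53-defective against control feeders. Over 80 member results and 1188 recomputed values, 1140 kept their call, 33 lost and 8 gained a call. A change of sign with no call before or after was counted among the 1140. The other 7 changed sign with a call before or after, whether or not the call was kept. On ES-specific scaling in ES cells on p53-defective against control feeders, those were Cdh1 (0.01), Zeb1 (2.64) and Twist2 (3.15); the median of all genes moved there by 3.37. On the deposited TPM they were Zeb2 in that comparison (-0.03), Epcam with ATN161 against control feeders (-0.02), and Cdh2 (-0.76) and Twist2 (-0.5) in ES cells on p53-defective feeders against those feeders. TPM moved the median of all genes by -0.61, -0.23 and -0.68 in these 3 comparisons, by -0.64 in the interaction, by -0.16 for ATN161 against removal and by -0.18 for removal against control feeders; the cause was not tested. Other shifts over 0.1 were 0.14 and -0.25 in fits of only the groups compared, 0.13 with the filter of 5 CPM, 0.12 with no filter and up to 0.12 without 1 library, all with p53-defective co-cultures. On curated transcripts alone Grhl2 lost its calls in feeders (0.0), in the interaction (-2.16) and with ATN161, where few of its reads remain. Same-numbered replicates deviated together little (correlations -0.07 to 0.22), with 0.11, 0.05 and 0.22 between the feeder groups. The labels do not say whether same-numbered replicates share a batch. With a replicate block the members called were 9, 10, 6, 9, 8, 10, 9 and 9 over the 8 comparisons, and the genes called in feeders went from 11433 to 11384. Reads of Cdh1, Epcam and Grhl2 in feeders are too few for more than the intervals given.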
